A study of Mus musculus with 15 samples.

Results

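Dux encodes a double-homeodomain transcription factor that switches on the genes of the 2-cell-stage mouse embryo. The genes described here are Dux and 5 genes of the 2-cell-like state that lie outside its near-identical gene families, namely Zfp352, Tmem92, Arg2, Lmx1a and Spz1. They were taken by symbol from both deposited expression tables, in which all 6 were listed among 24819 rows. RNA was sequenced from E14, a line of mouse embryonic stem cells that was grown on gelatin in serum with leukemia inhibitory factor. Cells were transfected with an siRNA against Rpl11 (siRpl11), Rpl14 (siRpl14), Rpl18 (siRpl18) or Rpl23 (siRpl23), all genes of large-subunit ribosomal proteins, or with a non-targeting siRNA (siNT). Each of these 5 groups had 3 libraries of polyadenylated RNA, so all groups shared the cell line and the transfection. The sample titles give 48 h and the treatment protocol gives harvest after 3 days, and it was not settled which applies. The labels do not say whether replicates were separate cultures. The p-values therefore rest on a spread between libraries that may be technical only.

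Embryonic stem cell cultures contain a small, changing share of cells that resemble the 2-cell embryo, and Dux is the activator placed at the head of that program. Dux is itself switched on by factors such as Dppa2, Dppa4 and p53, and is held down by chromatin repressors and by nucleolar proteins. Its reported targets include gene families such as Zscan4 and Tdpoz, the retroviral element MERVL and single genes such as the members described here. Later mentions of targets of Dux follow that background, and whether Dux drove the members in these cells was not tested. In RNA from a whole culture, a larger share of cells in the 2-cell-like state and more RNA per cell cannot be told apart.

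The members have unlike products. Zfp352 encodes a zinc finger protein of the early embryo, and Tmem92 a predicted transmembrane protein. Arg2 encodes the mitochondrial arginase, which splits arginine into ornithine and urea. Lmx1a is a LIM-homeodomain transcription factor used in the roof plate and in midbrain dopaminergic progenitors. Spz1 encodes a leucine-zipper transcription factor of the testis. In the GRCm38 annotation (GENCODE vM21) they lie on chromosomes 4 (Zfp352), 11 (Tmem92), 12 (Arg2), 1 (Lmx1a) and 13 (Spz1). The deposited values were made on mm9, so no gene coordinates are given. Sequence sharing was checked in that annotation as the share of 50-base words of a gene's longest transcript that also occur in transcripts of other genes. The share was 0 for Arg2 and Spz1, 0.0606% for Lmx1a, 2.01% for Tmem92 and 7.09% for Zfp352, whose other gene matches included Zfp353-ps. The same measure gave 49.6% for Zscan4d and 85.5% for Zscan4c. Dux was not matched by symbol in that annotation. It lies in a tandem array of near-identical repeats, so its reads could be split between copies or dropped, and its level is uncertain.

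RefSeq promoter sequence (GRCm38.p6) was matched by symbol for Zfp352, Lmx1a and Spz1, and the 250 bases before each start are shown because these genes moved together in the results that follow. Capitals mark each copy of TAATCC, a word chosen after the Zfp352 sequence was seen.
Zfp352 (chr4:90218570-90218819, plus strand): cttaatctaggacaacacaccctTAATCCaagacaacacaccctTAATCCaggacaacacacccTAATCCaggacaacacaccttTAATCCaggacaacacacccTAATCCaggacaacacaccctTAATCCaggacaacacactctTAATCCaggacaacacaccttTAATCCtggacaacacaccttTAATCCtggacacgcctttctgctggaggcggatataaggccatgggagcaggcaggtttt
Lmx1a (chr1:167689308-167689557, plus strand): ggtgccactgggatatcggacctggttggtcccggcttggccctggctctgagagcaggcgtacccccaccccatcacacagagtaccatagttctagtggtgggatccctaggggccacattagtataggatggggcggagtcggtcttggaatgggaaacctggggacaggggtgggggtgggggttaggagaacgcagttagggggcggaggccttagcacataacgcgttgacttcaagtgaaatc
Spz1 (chr13:92576233-92576482, minus strand): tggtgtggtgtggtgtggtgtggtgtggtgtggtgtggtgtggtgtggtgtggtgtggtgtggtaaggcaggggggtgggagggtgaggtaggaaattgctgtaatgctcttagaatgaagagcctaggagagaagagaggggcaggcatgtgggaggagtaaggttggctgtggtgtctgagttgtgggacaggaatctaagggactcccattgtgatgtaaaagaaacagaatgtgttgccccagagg
The Zfp352 window is built of a repeat and held 9 copies of TAATCC on the gene's strand, whereas the Lmx1a and Spz1 windows held 0 on either strand. Of 32851 RefSeq promoters of this length, 6.25% held at least 1 copy on either strand and 1, that of Zfp352, held 9 or more. The Spz1 window opens with a tandem run of TGTGG units that spans 60 bases. The palindromic word GATTNAATC, the core of the reported binding preference of mouse Dux, occurred in none of these 3 windows and in 0.247% of all promoters. These matches are descriptions of letters in short windows.

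Values are FPKM (fragments scaled to transcript length and library size) as deposited, in 2 separately normalized tables. Replicates 1 and 2 of every group stood in one, called the first table here, and entered all main tests. The third library of every group stood in the other and is compared within it. Total counts are not given; the step that 1 fragment makes in low FPKM values of single-transcript genes put the depth at roughly 12500000 to 23800000 fragments per library there and 10300000 to 13600000 in the table of the third libraries. Each targeted gene was lower in its own knockdown, with 24.0% of the siNT mean remaining for Rpl11, 51.6% for Rpl14, 32.6% for Rpl18 and 36.3% for Rpl23. The pluripotency list, 10 genes led by Dppa5a, summed to 5363 to 6977 FPKM in the knockdown libraries and 7931 to 8325 FPKM in siNT libraries of the first table. The 10 fibroblast markers summed to 4.71 to 10.6 FPKM in the knockdowns and 17.2 to 17.5 FPKM in siNT, most of it Thy1. Of them 5 stayed under 0.1 FPKM in every library of that table. Thy1 and Pdgfrb had lower means in every knockdown. In siRpl14, siRpl18 and siRpl23, Col1a1 (0.642 to 0.755 FPKM, against 0.388 in siNT), Pdgfra (0.601 to 0.978, against 0.558) and Twist2 (means under 0.1 FPKM) had higher means than siNT. In siRpl11 these had lower means (Col1a1 0.164 FPKM, Pdgfra 0.493 FPKM). The part of either list in the results that follow was not tested. Differences below are of log2(FPKM + 1), estimate ± SE, with limma's Benjamini-Hochberg adjusted p over the 12249 genes that reached 1 FPKM in 2 or more of those 10 libraries. A gene with an adjusted p under 0.05 was called. This scale understates changes of genes near or below 1 FPKM. Of the 10 pluripotency genes, 3 were called higher and 6 lower in siRpl11, against 27.3% and 43.6% of all tested genes. In each other knockdown 1 was called higher and 8 lower, against 32.8% to 34.9% and 29.5% to 34.7%. Among the third libraries these 10 genes summed to 7185 FPKM in siRpl11 and 6317 to 6469 FPKM in the other knockdowns, against 7281 FPKM in siNT.

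Knockdown of Rpl14, Rpl18 or Rpl23 was compared with siNT to ask how the activator and its single-copy targets responded. Dux and the other 5 genes were higher in each of these knockdowns, and siRpl18 gave the highest mean of replicates 1 and 2 for every member. Dux was at 1.46 and 1.62 FPKM in siRpl14, 1.91 and 1.77 FPKM in siRpl18, and 1.38 and 1.57 FPKM in siRpl23, against 0.337 and 0.393 FPKM in siNT. The siNT libraries lay below every library of these knockdowns. Among the third libraries Dux was at 0.587 FPKM in siRpl14, 0.603 FPKM in siRpl18 and 0.866 FPKM in siRpl23, and it was listed at 0 in siNT, so no fold is given there.

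Of the 6 members, 6 were called higher and 0 lower in siRpl14, where 33.3% of all tested genes were called higher and 29.5% lower. The same 6 were called higher in siRpl18, against 32.8% of tested genes higher and 34.7% lower, and in siRpl23, against 34.9% higher and 30.8% lower. The median difference of the members was 1.12, 1.43 and 1.09 in siRpl14, siRpl18 and siRpl23, against 0.02, -0.02 and 0.02 over all tested genes. Dux, Zfp352, Lmx1a and Spz1 reached 1 FPKM only in these 3 knockdowns and passed the filter through them, so the count says little about the list. Tmem92 and Arg2 were above 1 FPKM in every library of the first table, siNT included. Within both tables, every library of each of these 3 knockdowns was above every siNT library for 6 of 6 members. That held for 37.1% of tested genes in siRpl14, 34.4% in siRpl18 and 36% in siRpl23, while every library was lower for 31.9%, 37.2% and 33.4%.

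For Dux the mean was 4.21 times siNT in siRpl14 (difference 0.89 ± 0.09, adjusted p = 1.49e-05 by limma). It was 5.04 times siNT in siRpl18 (1.06 ± 0.09, adjusted p = 3.63e-06) and 4.04 times siNT in siRpl23 (0.86 ± 0.09, adjusted p = 1.77e-05). The ratios are of mean FPKM without a pseudocount, so they are larger than the differences on the log2(FPKM + 1) scale.

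**Figure D1:**
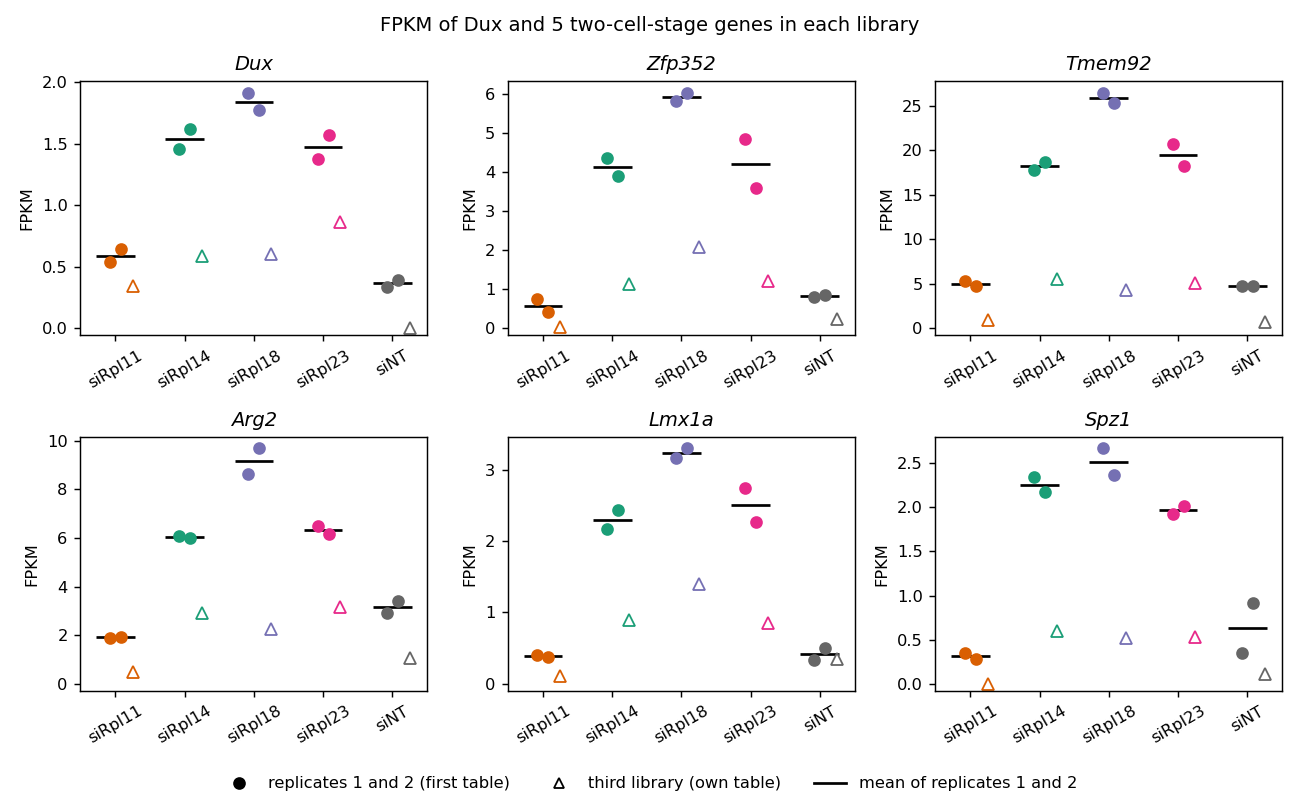
FPKM (vertical axis, linear) of each gene in each library by group. Filled circles are replicates 1 and 2, the line is their mean, and open triangles are the third libraries, which were normalized apart; in siRpl14, siRpl18 and siRpl23 both kinds of symbol lie above the siNT symbols of the same kind for all 6 genes.

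Among the targets, Tmem92 was the most abundant member per length. It was at 17.8 and 18.7 FPKM in siRpl14, 26.5 and 25.3 FPKM in siRpl18, and 20.7 and 18.3 FPKM in siRpl23, against 4.80 and 4.78 FPKM in siNT. Its differences from siNT were the largest of the 6 members on this scale, at 1.73 ± 0.07 in siRpl14 (adjusted p = 2.87e-08), 2.22 ± 0.07 in siRpl18 (adjusted p = 4.51e-09) and 1.82 ± 0.07 in siRpl23 (adjusted p = 1.82e-08). The third libraries held less Tmem92, at 5.56, 4.26 and 5.05 FPKM in siRpl14, siRpl18 and siRpl23, against 0.692 FPKM in siNT.

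Zfp352, the zinc finger gene whose promoter is shown above, was at 4.36 and 3.89 FPKM in siRpl14, 5.81 and 6.02 FPKM in siRpl18, and 4.84 and 3.59 FPKM in siRpl23, against 0.792 and 0.848 FPKM in siNT. No library of these knockdowns overlapped siNT. The mean was 7.21 times siNT in siRpl18 (1.93 ± 0.13, adjusted p = 6.51e-07), 5.03 times in siRpl14 (1.49 ± 0.13, adjusted p = 4.89e-06) and 5.14 times in siRpl23 (1.51 ± 0.13, adjusted p = 3.81e-06). In the third libraries the ratio to siNT was 4.94 in siRpl14, 9.16 in siRpl18 and 5.33 in siRpl23. The siNT level there, 0.228 FPKM, rests on roughly 5.3 fragments of a single library, so these ratios are imprecise.

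Lmx1a, the homeodomain gene, was at 2.17 and 2.43 FPKM in siRpl14, 3.17 and 3.30 FPKM in siRpl18, and 2.75 and 2.27 FPKM in siRpl23, against 0.337 and 0.504 FPKM in siNT. Its mean in siRpl18 was 7.69 times that in siNT, with a difference of 1.58 ± 0.10 (adjusted p = 4.72e-07). The differences were 1.22 ± 0.10 in siRpl14 (adjusted p = 3.54e-06) and 1.30 ± 0.10 in siRpl23 (adjusted p = 1.87e-06). The siRpl18 ratio was smaller among the third libraries, at 4.08 times siNT. Of 7 other markers of floor plate, roof plate or midbrain dopaminergic cells, which tissues that use Lmx1a would hold, Msx1 alone passed the filter. It was higher in all 4 knockdowns, from 0.53 ± 0.12 in siRpl11 (adjusted p = 0.00201) to 0.85 ± 0.12 in siRpl14 (adjusted p = 0.000125). Its mean was 0.236 FPKM in siNT and 1.22 FPKM in siRpl14. Msx1 thus passed the filter through knockdown libraries, which favoured a rise in advance. Among the third libraries Msx1 was at 0.166 FPKM in siNT, 0.234 FPKM in siRpl23 and 0.731 to 1.33 FPKM in the other knockdowns. Nr4a2, the marker with the highest siNT level of the 7, lay the other way, at means of 0.118 to 0.216 FPKM in the knockdowns and 0.400 FPKM in siNT, and was not tested. Gdf7 had means of 0.597 to 0.787 FPKM in siRpl14, siRpl18 and siRpl23 and 0.203 FPKM in siRpl11, against 0.283 FPKM in siNT. Th was at 0.140 to 0.341 FPKM in the knockdowns, against 0.0665 FPKM in siNT. Lmx1b was at 0.0826 FPKM in siRpl18 and 0.224 to 0.247 FPKM in the other knockdowns, against 0.122 FPKM in siNT. These were not tested either. The 7 markers summed to 1.57 to 2.63 FPKM in the knockdowns and 0.985 to 1.26 FPKM in siNT. Of them 2, Corin and Wnt1, stayed under 0.1 FPKM in every library of the first table. Their part in the Lmx1a result was not tested.

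Spz1, the testis factor, was at 2.34 and 2.17 FPKM in siRpl14, 2.67 and 2.36 FPKM in siRpl18, and 1.92 and 2.02 FPKM in siRpl23, against 0.354 and 0.915 FPKM in siNT. The 2 siNT libraries differed more from each other than those of any other group, and both stayed below these knockdowns. The differences from siNT were 1.01 ± 0.14 in siRpl14 (adjusted p = 0.000142), 1.12 ± 0.14 in siRpl18 (adjusted p = 5.78e-05) and 0.88 ± 0.14 in siRpl23 (adjusted p = 0.000334). These values rest on few reads, roughly 9.3 and 18 fragments in the siNT libraries and 40 to 61 in these knockdowns. The 7 spermatid markers summed to at most 0.214 FPKM in any knockdown library and 0.139 to 0.163 FPKM in siNT libraries of the first table, where 4 of them stayed under 0.1 FPKM in every library. Among the third libraries their sum was 0 to 0.139 FPKM in the knockdowns and 0.996 FPKM in siNT.

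Arg2, the arginase, had the smallest ratio to siNT of the 6 members in these knockdowns in replicates 1 and 2. It was at 6.07 and 6.02 FPKM in siRpl14, 8.63 and 9.71 FPKM in siRpl18, and 6.51 and 6.17 FPKM in siRpl23, against 2.91 and 3.41 FPKM in siNT. The mean was 1.91 times siNT in siRpl14 (0.76 ± 0.08, adjusted p = 2.19e-05), 2.90 times in siRpl18 (1.29 ± 0.08, adjusted p = 4.63e-07) and 2.00 times in siRpl23 (0.82 ± 0.08, adjusted p = 1.15e-05). Among the third libraries it was at 2.90 FPKM in siRpl14, 2.26 FPKM in siRpl18 and 3.17 FPKM in siRpl23, against 1.05 FPKM in siNT. The ratios there were 2.76 in siRpl14 and 3.01 in siRpl23, above the 2.60 and 2.51 of Lmx1a. The other arginase gene, Arg1, was at or near 0 in the first table, with means of 0 to 0.0791 FPKM over the groups. Of 12 genes of arginine and polyamine metabolism, 9 were tested, and 3 were called higher and 3 lower in siRpl14, and 3 and 4 in both siRpl18 and siRpl23. Over all tested genes, 32.8% to 34.9% were called higher and 29.5% to 34.7% lower in these knockdowns. Azin1, an inhibitor of antizyme, was higher in all 4 knockdowns (0.56 to 0.77), and Oaz2, an antizyme, was lower in all 4 (-0.86 to -0.40).

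**Figure D2:**
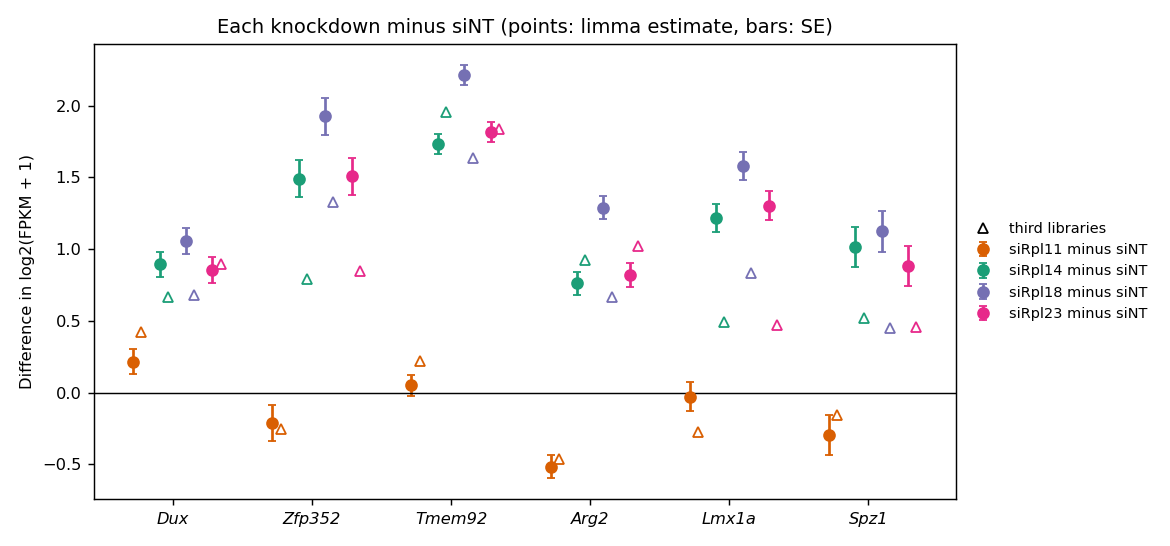
Difference in log2(FPKM + 1) of each knockdown from siNT for each gene; circles with SE bars are limma estimates from replicates 1 and 2, and open triangles are the third libraries. Estimates for siRpl14, siRpl18 and siRpl23 lie between 0.76 and 2.22, and those for siRpl11 between -0.52 and 0.22.

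Rpl11 knockdown gave another pattern. Arg2 was at 1.90 and 1.91 FPKM in siRpl11, against 2.91 and 3.41 FPKM in siNT, and fell by 0.52 on the log2 scale (SE 0.08, adjusted p = 0.000240). In the third libraries Arg2 was at 0.488 FPKM in siRpl11 and 1.05 FPKM in siNT. Of the 6 members, 1 was called lower and 0 higher, against 43.6% and 27.3% of all tested genes. That background moved with scaling, from 5343 genes lower and 3342 higher to 4119 lower and 4269 higher under quantile normalization and 4586 lower and 4137 higher under median-ratio scaling. The members' median difference was -0.12, against -0.11 over all tested genes. At an unadjusted p under 0.05, Dux was the 1 member that was higher.

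Dux was at 0.535 and 0.641 FPKM in siRpl11, against 0.337 and 0.393 FPKM in siNT, a mean 1.61 times siNT. Both siRpl11 libraries lay above both siNT libraries, and in the other table Dux was at 0.344 FPKM in siRpl11 and listed at 0 in siNT. The difference of 0.22 ± 0.09 fell just short of a call (adjusted p = 0.0504, 95% interval 0.02 to 0.42). It passed in 6 of the alternative settings and missed in the rest, every left-out library among them, with adjusted p ranging from 0.0137 to 0.229. With all 15 libraries it was 0.29 (adjusted p = 0.0362), with quantile normalization 0.30 (adjusted p = 0.0137), with median-ratio scaling 0.25 (adjusted p = 0.0284), and with a pseudocount of 0.1 it was 0.56 (adjusted p = 0.0138). With no filter the adjusted p was 0.0402 and with the replicate block 0.0458. All of these Dux levels lay under 1 FPKM, and the number of fragments behind them was not estimated.

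The remaining members were not called in siRpl11. Zfp352 was at 0.740 and 0.424 FPKM in siRpl11, against 0.792 and 0.848 FPKM in siNT (-0.21 ± 0.13, adjusted p = 0.164). The values of the other table were 0.0282 FPKM in siRpl11, roughly 0.87 fragments, and 0.228 FPKM in siNT, roughly 5.3 fragments. Spz1 was at 0.349 and 0.277 FPKM in siRpl11, against 0.354 and 0.915 FPKM in siNT (-0.30 ± 0.14, adjusted p = 0.0839), and it was called lower when siNT replicate 1 was left out (-0.55, adjusted p = 0.00184). In the other table Spz1 was listed at 0 in siRpl11 and was at 0.111 FPKM in siNT, roughly 1.8 fragments.

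Tmem92 and Lmx1a differed from siNT by less than their spread in siRpl11. Tmem92 was at 5.27 and 4.74 FPKM in siRpl11, against 4.80 and 4.78 FPKM in siNT (0.05 ± 0.07, adjusted p = 0.540, 95% interval -0.11 to 0.21). Quantile normalization, which moved the median of all genes in siRpl11 from -0.11 to 0.01, gave it a call (0.27, adjusted p = 0.00520). Lmx1a was at 0.403 and 0.381 FPKM in siRpl11, against 0.337 and 0.504 FPKM in siNT (-0.03 ± 0.10, adjusted p = 0.819, 95% interval -0.25 to 0.19). In the other table Tmem92 was at 0.974 FPKM in siRpl11 and 0.692 FPKM in siNT. Lmx1a was there at 0.108 FPKM in siRpl11, roughly 4.9 fragments, and 0.342 FPKM in siNT, roughly 12 fragments. Within both tables, every siRpl11 library was above every siNT library for 1 member (Dux), against 29.1% of tested genes, and below for 3 (Zfp352, Arg2 and Spz1), against 45.4%.

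The difference between knockdowns was tested directly. All 6 members were lower in siRpl11 than in the mean of siRpl14, siRpl18 and siRpl23. Over all tested genes 44.2% were lower there and 18.4% higher (under quantile normalization, 3242 genes lower and 4267 higher). Dux, Zfp352, Lmx1a and Spz1 passed the filter only through siRpl14, siRpl18 and siRpl23, so this count also says little about the list. For Tmem92 the difference was -1.87 ± 0.06 (adjusted p = 5.37e-09), for Zfp352 -1.85 ± 0.10 (adjusted p = 2.31e-07), for Arg2 -1.47 ± 0.07 (adjusted p = 4.95e-08) and for Lmx1a -1.39 ± 0.08 (adjusted p = 2.94e-07). Spz1 (-1.30 ± 0.12, adjusted p = 5.70e-06) and Dux (-0.72 ± 0.07, adjusted p = 1.54e-05) differed least. The third libraries gave the same direction for all 6, from -1.59 for Tmem92 to -0.32 for Dux.

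Between siRpl18 and siRpl14, 4 members were called higher and 0 lower in siRpl18, against 5.96% of tested genes higher and 8.3% lower: Arg2 (0.53 ± 0.08, adjusted p = 0.00396), Tmem92 (0.48 ± 0.07, adjusted p = 0.00307), Zfp352 (0.43 ± 0.13, adjusted p = 0.0484) and Lmx1a (0.36 ± 0.10, adjusted p = 0.0376). Dux did not pass (0.16 ± 0.09, adjusted p = 0.250, 95% interval -0.04 to 0.36), nor did Spz1 (0.11 ± 0.14, adjusted p = 0.644). With all 15 libraries 0 members were called. The third libraries had Tmem92 at 4.26 FPKM in siRpl18 and 5.56 FPKM in siRpl14, and Arg2 at 2.26 FPKM in siRpl18 and 2.90 FPKM in siRpl14, the opposite order from replicates 1 and 2. The Zfp352 and Lmx1a calls also ended when any single siRpl14 or siRpl18 library was left out, that of Zfp352 without either siNT library, and that of Lmx1a without either siRpl11 library. Neither call was made with no filter or a pseudocount of 0.1, and that of Lmx1a was not made with only the groups compared.

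Between siRpl18 and siRpl23, 2 members were called higher and 0 lower in siRpl18, against 1.07% of tested genes higher and 2.44% lower: Arg2 (0.47 ± 0.08, adjusted p = 0.0154) and Tmem92 (0.40 ± 0.07, adjusted p = 0.0171). Neither was called with all 15 libraries, with only the groups compared, without siRpl18 replicate 2 or without siRpl23 replicate 2, and 1 was called without siRpl18 replicate 1 (Arg2) or siRpl23 replicate 1 (Tmem92). In the third libraries both were lower in siRpl18 than in siRpl23. Between siRpl14 and siRpl23, 0 members were called by limma, against 0.098% of tested genes higher and 0.416% lower, and none had an unadjusted p under 0.05. The 95% interval of that difference was -0.16 to 0.24 for Dux and -0.30 to 0.27 for Zfp352. In order of level in replicates 1 and 2, siRpl18 came first for every member, and the next, siRpl14 and siRpl23, were not separated beyond their spread. Among the third libraries siRpl18 came first for Zfp352 and Lmx1a, siRpl23 for Dux and Arg2, and siRpl14 for Tmem92 and Spz1.

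**Figure D3:**
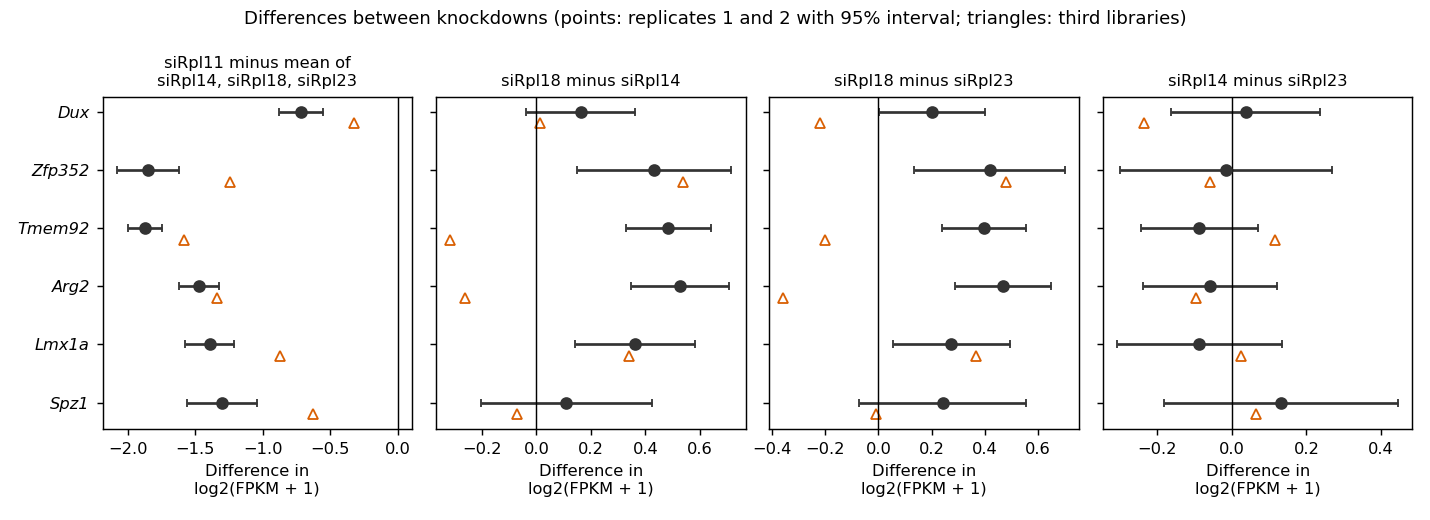
Differences in log2(FPKM + 1) between knockdowns for each gene; circles are limma estimates with 95% intervals and open triangles are the third libraries. All intervals lie below 0 for siRpl11 against the mean of the others, and the triangles of Tmem92 and Arg2 lie below 0 in both siRpl18 panels, where the circles lie above it.

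The level of each target relative to Dux was then set out, as the ratio of its FPKM to that of Dux in the same library of the first table. For Zfp352 this ratio was 0.662 to 1.38 in siRpl11 and ranged from 2.28 to 3.51 in the other 3 knockdowns, against 2.16 to 2.35 in siNT. For Lmx1a it was 0.595 to 0.752 in siRpl11 and ranged from 1.45 to 2.00 in the other knockdowns, against 0.998 to 1.28 in siNT. The siRpl11 libraries were thus the lowest for both genes, as they were for each of the other targets below. For Tmem92 it was 7.39 to 9.83 in siRpl11 and 11.5 to 15.0 in the others, against 12.2 to 14.2 in siNT. For Arg2 it was 2.98 to 3.55 in siRpl11 and 3.71 to 5.48 in the others, against 8.63 to 8.67 in siNT, so every knockdown library was below siNT. For Spz1 it was 0.432 to 0.652 in siRpl11 and 1.29 to 1.61 in the others, against 1.05 to 2.33 in siNT. These ratios were not tested, and the low FPKM of Dux enters each of them.

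The third libraries held less of these genes than the mean of replicates 1 and 2 in every group. In siNT the level of the third library divided by that mean was 0.145 for Tmem92, 0.175 for Spz1, 0.278 for Zfp352, 0.333 for Arg2 and 0.812 for Lmx1a. Over all tested genes the median of this ratio was 0.960, and its 5th percentile was 0.489. The tables were normalized separately, so these are levels set across tables and were not tested.

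The regulators of Dux went in several directions. Of 5 activators fixed as a list, 4 were in the table, and 3 were called higher and 1 lower in each of the 4 knockdowns. Over all tested genes, 27.3% to 34.9% were called higher and 29.5% to 43.6% lower. Trp53, which encodes p53, was at 542 ± 3.80 FPKM in siRpl11, 304 ± 3.18 in siRpl14, 359 ± 0.459 in siRpl18 and 317 ± 10.9 in siRpl23, against 186 ± 5.07 in siNT (SD, n = 2 each). It was higher in siRpl11 than in the mean of the other knockdowns (0.73 ± 0.03, adjusted p = 5.64e-08), the opposite direction from Dux. Dppa2, a DNA-binding activator of Dux, was likewise highest in siRpl11, at 125 ± 1.01 FPKM against 60.3 ± 4.14 in siNT, and at 100.0 to 104 FPKM in the other knockdowns. It was higher in siRpl11 than in their mean (0.30 ± 0.04, adjusted p = 0.000181).

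Dppa4, the partner of Dppa2, fell in each knockdown, from -0.34 ± 0.04 in siRpl18 (adjusted p = 5.27e-05) to -0.13 ± 0.04 in siRpl11 (adjusted p = 0.0198). The siRpl11 call ended with median-ratio scaling. Nelfa, a subunit of the negative elongation factor that drives the 2-cell-like state when supplied, was at 61.8 ± 0.444 FPKM in siRpl11, 75.4 ± 2.02 in siRpl14, 73.4 ± 0.682 in siRpl18 and 75.7 ± 3.26 in siRpl23, against 46.3 ± 0.150 in siNT. Of the activators it was the 1 that was lower in siRpl11 than in the mean of the other knockdowns (-0.27 ± 0.03, adjusted p = 6.73e-05).

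Of 27 repressors, 14 were called higher and 6 lower in siRpl11, against 27.3% of all tested genes higher and 43.6% lower. In each of the other knockdowns 8 were called higher and 11 lower, against 32.8% to 34.9% of all tested genes higher and 29.5% to 34.7% lower. The median difference of the repressors was 0.11 in siRpl11, against -0.11 for all tested genes, and -0.06 to -0.05 in the others, against -0.02 to 0.02. Lin28a, an RNA-binding protein that takes part in repression of Dux at the nucleolus, had the highest mean difference from siNT over the 4 knockdowns in this list. It was at a mean of 286 FPKM in siRpl11 and 117 to 150 FPKM in the other knockdowns, against 91.4 ± 4.55 in siNT. It was higher in siRpl11 than in the mean of the other knockdowns (1.07 ± 0.04, adjusted p = 9.94e-09). In the third libraries Lin28a was at 114 FPKM in siRpl18 and 129 FPKM in siNT, the opposite direction from replicates 1 and 2. Ehmt2, a histone H3 lysine 9 methyltransferase, had the lowest such mean difference, at 26.7 ± 0.685 FPKM in siRpl11 and 28.2 to 32.0 FPKM in the others, against 45.1 ± 1.21 in siNT.

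Targets of p53, all 15 of which were tested, were called higher in 13 cases in siRpl11, against 27.3% of all tested genes. In each of the other knockdowns 15 were called higher, against 32.8% to 34.9% of all tested genes. The median difference of these targets was 0.83 in siRpl11 and 1.40, 1.51 and 1.53 in siRpl14, siRpl18 and siRpl23. Perp, a membrane protein of p53-dependent death, had the highest mean difference over the 4 knockdowns, at 41.7 ± 0.0718 FPKM in siRpl11 and 166 to 243 FPKM in the others, against 9.28 ± 0.354 in siNT. Bax, the pore-forming death protein, had the lowest mean difference over the 4, at 0.23 ± 0.05 in siRpl11 (adjusted p = 0.00266) and 0.40 to 0.42 in the others. In siRpl11 alone the order differed: Plk2, a polo-like kinase, differed most (2.58 ± 0.04, adjusted p = 5.13e-10), and the death gene Bbc3 (0.09 ± 0.05, adjusted p = 0.144) and the cell cycle inhibitor Cdkn1a (0.09 ± 0.06, adjusted p = 0.192) were the 2 not called. In siRpl11, 14 of 15 were called lower than in the mean of the other knockdowns, against 44.2% of tested genes lower and 18.4% higher. Trp53 RNA was higher there, and a link of p53 to the level of Dux was not tested.

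Other genes of the 2-cell-like state were set beside the members. Of 42 family genes listed, 29 were in the table and 23 were tested. In siRpl14, siRpl18 and siRpl23 all 23 of these tested genes were called higher (medians 1.31, 1.34 and 1.29), against 32.8% to 34.9% of all tested genes. In siRpl11 15 were lower and 1 higher (median -0.44), against 43.6% and 27.3% of all tested genes. With quantile normalization 11 were lower and 2 higher in siRpl11, against 4119 and 4269 of all 12249 tested genes. Between siRpl18 and siRpl14, 4 of 6 members were higher in siRpl18. Of the 23, 2 were higher and 6 lower there, against 5.96% and 8.3% of all tested genes. Members of this list low in siNT passed the filter through the knockdowns, and near-identical copies can split reads. Tdpoz3 had the highest mean difference from siNT over the 4 knockdowns, with levels of 16.7 ± 2.40 FPKM in siRpl18 and 0.819 ± 0.198 in siRpl11, against 0.927 ± 0.142 in siNT. Gm2016 had the lowest such mean difference, with levels of 25.6 ± 2.14 FPKM in siRpl18 and 6.79 ± 0.754 in siRpl11, against 13.3 ± 1.39 in siNT.

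The 8 other listed genes of that state were mixed. In siRpl14 and siRpl18, 5 were called higher and 1 lower, and in siRpl23 5 and 2. Over all tested genes 32.8% to 34.9% were higher and 29.5% to 34.7% lower in these knockdowns. In siRpl11 2 were higher and 4 lower, against 27.3% and 43.6% of all tested genes. With quantile normalization 3 were called higher and 2 lower in siRpl14 and in siRpl23, and 2 and 2 in siRpl11. Over all 12249 tested genes that setting gave 3617 higher and 4190 lower in siRpl14, 3795 and 4356 in siRpl23, and 4269 and 4119 in siRpl11. Ddit4l, a relative of the mTORC1 inhibitor Ddit4, had the highest mean difference over the 4 knockdowns, at 21.7 ± 1.59 FPKM in siRpl11 and 45.5 to 54.8 FPKM in the others, against 5.08 ± 0.971 in siNT. Calcoco2, an autophagy receptor, was lower in all 4 knockdowns, at 8.99 to 10.5 FPKM, against 16.9 ± 1.14 in siNT.

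**Figure D4:**
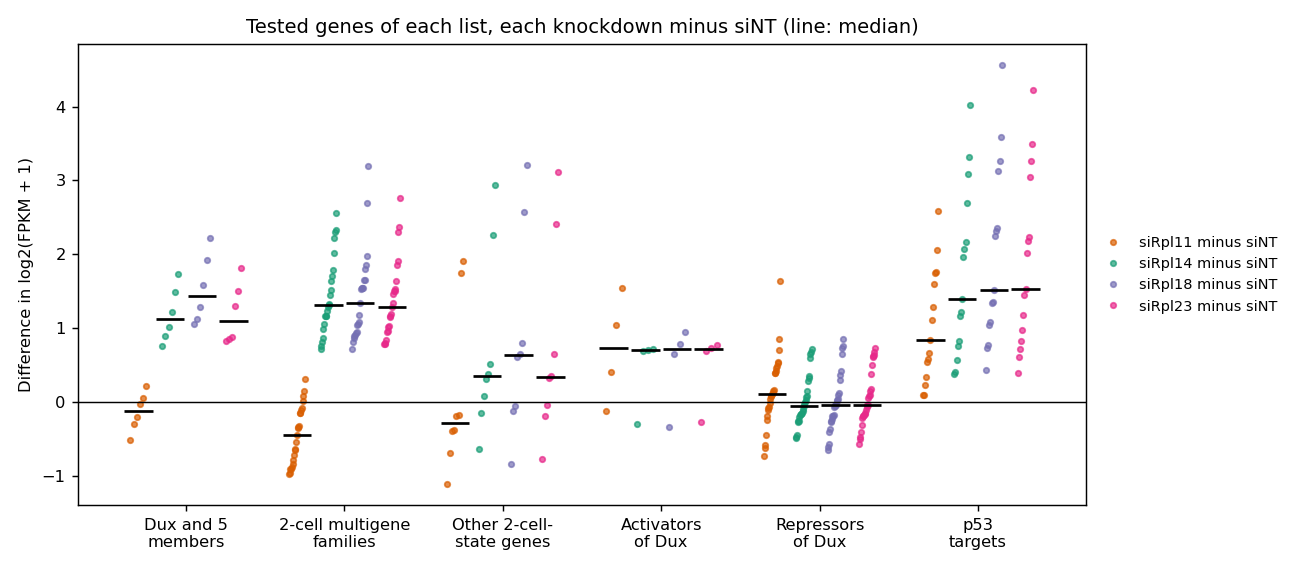
Difference in log2(FPKM + 1) from siNT (vertical axis) of every tested gene of 6 lists in each knockdown; each point is a gene and the black line is the list's median. Medians of Dux and its 5 targets are -0.12 in siRpl11 and 1.09 to 1.43 in the other knockdowns, while p53 targets have positive medians in all 4.

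Genes whose profile was most like that of each member were found by Pearson's r over the 10 libraries of the first table, among 12243 other tested genes. The 10 points share 5 groups, of which siRpl11 and siNT lie low and the others high for every member, and 156 to 485 genes reached an r of 0.95 with a given member. Nearest to Dux were Ddx59 (r of 0.994) and Pgf (0.993). Ddx59, a putative RNA helicase, was at 13.4 FPKM in siRpl11 and 24.7 FPKM in siRpl18, against 11.1 FPKM in siNT. Pgf, the placental growth factor, was at 1.09 FPKM in siRpl11 and 4.12 FPKM in siRpl18, against 0.910 FPKM in siNT.

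Nearest to Tmem92 were Gm13078 (0.996) and Tdpoz4 (0.995), both on the list of 2-cell families. Zfp352 was nearest to Tmem94 (0.995) and Cenpt, a kinetochore protein (0.995). Lmx1a was nearest to LOC105246046 (0.995) and Sbsn (0.995), Arg2 to Id1, an inhibitor of bHLH factors (0.993), and the heat shock gene Hspa1a (0.991), and Spz1 to Mapre3 (0.986) and Stard3nl (0.982). Among the members themselves r ranged from 0.892 for Dux with Arg2 to 0.997 for Tmem92 with Lmx1a.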

How the data were processed

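The authors deposited gene-level FPKM. STAR, Cuffnorm and build mm9 are named in the submitters' processing notes; no version, annotation or setting is given in the sources used here. Of the first table, 2 columns matched no sample and were not used. From FPKM as deposited, log2(FPKM + 1) was computed, and limma 3.58.1 (R 4.3.3) fitted it (1 term per group, eBayes with trend, 5 residual degrees of freedom) on replicates 1 and 2 of all 5 groups. The code was tested on simulated data. The 6 members, the gene lists and the tests were chosen with earlier results of these data known. Named genes were all members, all tested activators, the tested gene with the highest and lowest mean difference of each other list, and the 2 nearest profiles of each member. Named outside that rule were Arg1, Msx1, Nr4a2, Gdf7, Th, Lmx1b, Corin, Wnt1, Plk2, Bbc3, Cdkn1a, Zscan4c, Zscan4d, Dppa5a, Col1a1, Pdgfra and Twist2. Fragment numbers are approximate: FPKM times the length of the longest transcript, divided by the step of 1 fragment, from genes with 1 transcript over 800 bases in GENCODE vM21. Alternatives were a pseudocount of 0.1, no filter, quantile normalization, median-ratio scaling, all 15 libraries with the table as a block, a replicate block, only the groups compared and leaving out each library.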

Additional observations from a re-analysis of the deposited data

How the results depend on the processing

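In siRpl14, siRpl18 and siRpl23 against siNT, and in siRpl11 against the mean of those 3, 6 of 6 members were called in every alternative run. In siRpl11 against siNT the count of 1 became 2 with a pseudocount of 0.1, no filter, median-ratio scaling, all 15 libraries or the replicate block, and 3 with quantile normalization; it was 1 to 2 with a library left out. In siRpl18 against siRpl14 the count of 4 became 2 with a pseudocount of 0.1 or no filter and 0 with all 15 libraries, and was 2 to 4 with a library left out. In siRpl18 against siRpl23 the count of 2 became 0 with all 15 libraries or only the groups compared, and was 0 to 2 with a library left out. The cause was not tested. Some uncalled differences near 0 changed sign. Lmx1a in siRpl11 against siNT was 0.0347 with quantile normalization, 0.00142 with median-ratio scaling and -0.112 to 0.0582 with a library left out, and Tmem92 there was -0.0134 to 0.114. In siRpl14 against siRpl23, Dux was -0.0528 with all 15 libraries and -0.0186 to 0.0938 with a library left out, Zfp352 was -0.19 to 0.16 and Lmx1a was -0.185 to 0.0120. Replicate numbers were not taken to pair the samples: the correlation across genes of same-numbered deviations between groups ranged from -0.0858 to 0.195. The replicate block moved counts over all tested genes by over 1.5 times in siRpl18 against siRpl23 (316 higher and 670 lower, against 131 and 299) and in siRpl14 against siRpl23 (62 and 178, against 12 and 51), and the lower count so in siRpl18 against siRpl14 (1066 and 1545, against 730 and 1017). With only the groups compared these 3 counts were 26 and 40, 3 and 8, and 459 and 529. Leaving out either library of either compared group moved each by over 1.5 times, and siRpl14 against siRpl23 also moved so without any siRpl11 or siRpl18 library; the fewest calls in the same order were 33 higher and 38 lower without siRpl23 replicate 1, 1 and 1 without siRpl14 replicate 1, and 305 and 311 without siRpl14 replicate 2. With no filter the first was 86 and 181 and the second 4 and 19, and with a pseudocount of 0.1 the second was 7 and 28. In siRpl18 against siRpl14 median-ratio scaling gave 976 higher and 731 lower, and in siRpl18 against siRpl23 249 and 205 (quantile normalization, 205 and 245). Dux, Zfp352, Lmx1a and Spz1 passed the filter only through siRpl14, siRpl18 and siRpl23. Counts of members called between those knockdowns and siNT or siRpl11 therefore say little about the list. Low read numbers limit Spz1, Zfp352 and Lmx1a in siRpl11 and siNT. Dux also lay under 1 FPKM in those groups, and its number of fragments was not estimated, as the annotation used held no match by symbol.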
